A study of Caenorhabditis elegans with 80 samples.

Results

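The response of Caenorhabditis elegans to mercury was set against its response to acrylamide after 4 h of exposure, gene by gene, as a difference of effects. Each effect is the change of an exposed group from the unexposed group of the same chemical series, on the log2 scale, and the difference is the mercury effect minus the acrylamide effect. The comparison takes 12 of the 80 arrays of the series: 3 from worms given 25 mg per L mercury, 3 from the mercury controls at 0 mg per L, 3 from worms given 1000 mg per L acrylamide and 3 from the acrylamide controls at 0 mg per L. These are the highest doses of each chemical in the series, and they are not matched doses, so a difference holds for this pair of doses. Whole worms were grown without bacteria in CeHR, a defined liquid medium, at 22.5 °C, and the chemical was mixed into the medium in mid-L4 larvae, just before adulthood. The polyadenylated RNA of whole animals was read. The strain and the mercury compound are not given in the sources used here. Replicates are separate samples by their labels, and nothing says more of how separate the cultures were. The p-values and standard errors measure only the spread between samples of a group, estimated over the groups of all 80 arrays.

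Both chemicals bind thiols, but by different routes. Mercury is a metal ion that binds the sulfur of cysteine side chains, which can unfold proteins, and animals meet such metals with metallothioneins, small cysteine-rich proteins that hold metal ions, and with heat shock proteins, which hold unfolded proteins. Acrylamide is a small electrophile that glutathione S-transferases couple to glutathione, and in worms the transcription factor SKN-1 switches on such conjugating enzymes and the synthesis of glutathione. In bulk RNA of whole worms, fewer cells of a type and less RNA per cell cannot be told apart.

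Signals are given below after each array had been centred on a common median of 202.9, and log2 values were taken after a pseudocount of 52 was added, which understates the change of dim genes. Array medians before centring ran from 171.31 to 228.45, and arrays of 1 group correlated with each other at 0.917 to 0.98. The defining markers of gut, muscle, neurons, hypodermis, germline and sperm were all above 80 in every array: the defining gut gene elt-2 ran from 272 to 678 over the 12 arrays, the muscle myosin gene unc-54 from 4590 to 10900 and the germline gene pgl-1 from 1300 to 2750. The actin 3' to 5' log2 ratio, a sign of RNA length, was 1.17 to 1.42 in mercury-exposed worms against 0.79 to 0.94 in their controls, and 0.52 to 1.24 in acrylamide-exposed worms against 0.58 to 1.03 in theirs. The same ratio of GAPDH lay between -0.08 and 0.21 in all 12 arrays, and the part of this gap in the results was not tested. Replicate 3 of the acrylamide controls stood apart in some genes: of 701 genes that acrylamide raised at 8 h, in other arrays, it was the highest of the 3 controls at 4 h for 325 (46.4%), with a median log2 value 0.15 above the other controls. In replicate 1 of the same controls, 511 of 754 genes lowered at 8 h (67.8%) were highest, with a median 0.33 above the others. Over the 701 genes, replicate 1 of the acrylamide-exposed worms had a median log2 value of -0.25 relative to the other exposed arrays and was their highest for 16.7% of the genes. Mercury arrays were uneven too. Of 1069 genes that mercury lowered at 8 h, replicate 3 of the mercury-exposed worms was highest for 559 (52.3%), with a median 0.13 above the others. Replicate 1 of the mercury controls was highest for 479 (44.8%). List counts below were redone without the acrylamide arrays named here, and not without a mercury array. Changed counts are given for some lists only.

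The difference of effects was called for 399 of 13508 genes tested, or 2.95% (limma, Benjamini-Hochberg adjusted p under 0.05, over all probe sets tested). Of these, 168 (1.24% of all genes) had a higher mercury effect and 231 (1.71%) a lower one. The median size of a called difference was 1.73, the range 0.76 to 6.71, and 127 exceeded 4-fold, against a median standard error of 0.38. Without replicate 3 of the acrylamide controls the calls were 150 higher and 191 lower, without replicate 1 of these controls 155 and 203, and without replicate 1 of the acrylamide-exposed worms 219 were lower.

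Taken alone, mercury raised 806 genes (5.97%) and lowered 943 (6.98%), 12.9% in all, and acrylamide raised 503 (3.72%) and lowered 468 (3.46%), 7.19% in all. Without the same 3 arrays in turn, acrylamide raised 431 and lowered 377, raised 469 and lowered 380, and raised 468 and lowered 398. Both splits depend on the scaling. Over probe sets, acrylamide had 627 higher (3.52%) and 605 lower (3.4%), and 716 higher and 382 lower with the authors' scaling left as deposited. Mercury had 1014 higher and 1201 lower, and 1086 higher and 909 lower with that scaling, so which direction held more calls turned. These counts take the arrays as unpaired. With the replicate number as a block, mercury had 1163 higher and 1550 lower, and acrylamide 736 and 907. Both chemicals raised 274 genes, which were 34% of those raised by mercury and 54.5% of those raised by acrylamide. Both lowered another 274, which were 29.1% and 58.5% of the genes lowered by each. Across all 13508 genes the effects had a Pearson correlation of 0.577, as a description, since genes are not independent and the effects share no array. The controls of the chemicals differed in 1 gene (0.0074%), csnk-1, named after its values were seen. It differed by 1.00 (limma adjusted p = 0.010), and 976 probe sets had an unadjusted p under 0.05. Among genes raised by both, the difference was called for 25, and among those lowered by both, for 14.

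The 168 genes with a higher mercury effect came from unlike patterns. Mercury alone raised 113 of them, acrylamide alone lowered 23, and 17 rose with mercury and fell with acrylamide. A further 8 rose with both, 1 fell with both, and 6 passed in neither effect alone. The 231 genes with a lower mercury effect held 127 that mercury alone lowered, 50 that acrylamide alone raised, 18 that fell with mercury and rose with acrylamide, 17 that rose with both, 13 that fell with both and 6 called in neither.

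**Figure D1:**
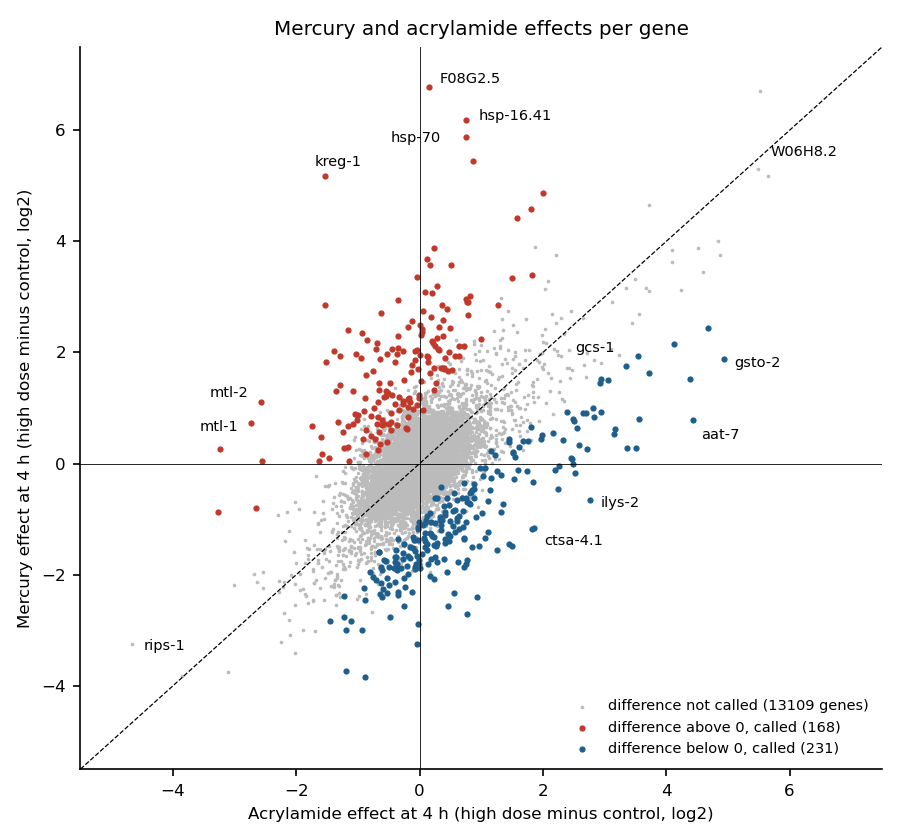
Mercury effect (vertical axis) against acrylamide effect (horizontal axis) at 4 h for each of 13508 genes, in log2 units; the dashed line marks equal effects. The 168 red points have a called difference above 0 and the 231 blue points one below 0; kreg-1, F08G2.5 and the heat shock genes stand far above the line, aat-7 and gsto-2 far below it, and gcs-1 lies on it.

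The gene lists here and below were chosen with earlier results of these data known, so their counts and medians are descriptions. Over all genes tested, 1.24% were called higher and 1.71% lower. Heat shock genes were among those with a higher mercury effect. Of 9 small heat shock protein genes tested, 4 had a higher mercury effect and none a lower one, with a median difference of 0.74 against 0.02 over all genes. Small heat shock proteins of the alpha-crystallin type bind unfolding proteins before they clump. For hsp-16.41 the signal was 6132, 7817 and 9517 in mercury-exposed worms, 26.4, 73.2 and 73.1 in the mercury controls, 374, 570 and 458 in acrylamide-exposed worms and 104, 441 and 313 in the acrylamide controls. The mercury-exposed arrays lay far above all others, and the acrylamide groups overlapped. The difference was 5.42 ± 0.84 (SE, n = 3 arrays a group, limma adjusted p = 5.4e-06), from a mercury effect of 6.18 and an acrylamide effect of 0.76 (adjusted p = 0.57). Its neighbour hsp-16.2 had 6293, 7749 and 9095 in mercury-exposed worms, 95.3, 127 and 155 in the mercury controls, 242, 574 and 416 in acrylamide-exposed worms and 70.7, 227 and 365 in the acrylamide controls. Here too the mercury-exposed arrays stood apart, with a difference of 4.58 ± 0.67 (SE, adjusted p = 1.7e-06). hsp-17 differed by 2.22 (adjusted p = 0.00033), with 4077, 5309 and 5953 in mercury-exposed worms against 1255 to 1684 in their controls, and 1015 to 1661 in acrylamide-exposed worms against 1528 to 1698 in theirs. The fourth member, hsp-12.3, differed through acrylamide, which lowered it by 1.64, and its call (1.69, adjusted p = 0.031) was lost when any 1 of 7 arrays was left out, with values of 1.26 to 2.02. Without a pseudocount its difference was 3.58.

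The inducible Hsp70 gene hsp-70, whose protein refolds other proteins, had 6235, 7021 and 6544 in mercury-exposed worms, 67.4, 61.5 and 55.7 in the mercury controls, 129, 237 and 259 in acrylamide-exposed worms and 133, 90.7 and 78.3 in the acrylamide controls. Only the mercury-exposed arrays passed 260, and the difference was 5.13 ± 0.57 (SE, adjusted p = 2.3e-09). Its probe set carries a suffix that marks possible cross-hybridization with related genes. Of 14 cytosolic chaperone genes tested, 2 were called higher and none lower, with a median difference of 0.22, and 1 was higher without replicate 1 of the acrylamide controls or of the acrylamide-exposed worms. The second was hsp-110, a Hsp70 co-chaperone gene, at 1.29 (adjusted p = 0.045), a call lost when any 1 of 8 arrays was left out (1.11 to 1.49). In the endoplasmic reticulum, 1 of 22 genes of the unfolded protein response was called: ckb-2, a choline kinase gene, with 4043, 5002 and 4510 in mercury-exposed worms, 631, 616 and 754 in their controls, 863, 1917 and 1649 in acrylamide-exposed worms and 755, 847 and 786 in theirs. Its difference was 1.89 (adjusted p = 0.0011). The BiP gene hsp-4, the chaperone most used as a reporter of that response, had a mercury effect of 0.94 and a difference of 0.99 that was not called (adjusted p = 0.067, 95% interval 0.38 to 1.61). It was called without replicate 1 of the mercury-exposed worms (1.13) and under 3 other settings, as given in the closing section.

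Metal-responsive genes differed through both chemicals. Of 10 genes listed as metallothioneins and cadmium-responsive genes and tested, 4 had a higher and 2 a lower mercury effect, with a median difference of 0.59. kreg-1 had the largest difference of all genes tested, with or without the pseudocount, at 6.71 ± 0.59 (SE, adjusted p = 1e-12). Its signal was 4824, 6584 and 9978 in mercury-exposed worms, 145, 131 and 141 in the mercury controls, 5.6, 10.9 and 9.88 in acrylamide-exposed worms and 87.7, 121 and 175 in the acrylamide controls. The 4 groups were ordered without overlap between exposed and control arrays, mercury-exposed far above and acrylamide-exposed below. The acrylamide-exposed signals lay under the pseudocount, and without one the difference was 9.48. F08G2.5 was next at 6.62 ± 0.54 (SE, adjusted p = 7.8e-14), with 5240, 6870 and 9041 in mercury-exposed worms and 6.06 to 37 in the other 9 arrays. Without a pseudocount its difference was 8.68.

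The larger part of the difference in both metallothionein genes, mtl-1 and mtl-2, was a fall with acrylamide. mtl-1 had 4547, 4232 and 5686 in mercury-exposed worms, 3782, 2365 and 2585 in the mercury controls, 223, 330 and 397 in acrylamide-exposed worms and 2391, 2792 and 1927 in the acrylamide controls. The 3 acrylamide-exposed arrays were the low ones, with an effect of -2.73 (adjusted p = 2.1e-09), and the mercury effect of 0.74 was not called (adjusted p = 0.15), giving a difference of 3.47 ± 0.46 (SE, adjusted p = 2.3e-07). mtl-2 had 12290, 14125 and 22828 in mercury-exposed worms, 7211, 5828 and 9160 in the mercury controls, 474, 795 and 760 in acrylamide-exposed worms and 6177, 3774 and 3111 in the acrylamide controls. It rose by 1.12 with mercury (adjusted p = 0.031) and fell by 2.57 with acrylamide (adjusted p = 2.2e-07), a difference of 3.68, read from a probe set with the cross-hybridization suffix. cdr-1, of the cadmium-responsive family, had 917, 1196 and 1542 in mercury-exposed worms, 144, 84.2 and 116 in the mercury controls, 278, 457 and 503 in acrylamide-exposed worms and 136, 293 and 225 in the acrylamide controls. All mercury-exposed arrays exceeded the rest, and its difference of 2.13 (adjusted p = 0.012) lost its call when any 1 of 3 arrays was left out (replicate 3 of the mercury-exposed worms, 1.95, replicate 1 of the acrylamide-exposed worms, 1.9, or replicate 2 of the acrylamide controls, 1.93). Its relative cdr-2 went the other way, falling by 1.35 with mercury and rising by 1.07 with acrylamide. Outside the rule for naming genes, and named after its values were seen, hmt-1, a transporter of metal-binding phytochelatins into organelles, rose by 1.54 with acrylamide, its mercury effect was 0.11, and the difference was -1.43 (adjusted p = 1.5e-05). Among 17 genes of zinc, iron, copper and heme handling, ttm-1, a zinc transporter gene, was the only call, at 1.53 (adjusted p = 0.0037), and ftn-1, described below, was the other gene called once replicate 3 of the acrylamide controls was left out.

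**Figure D2:**
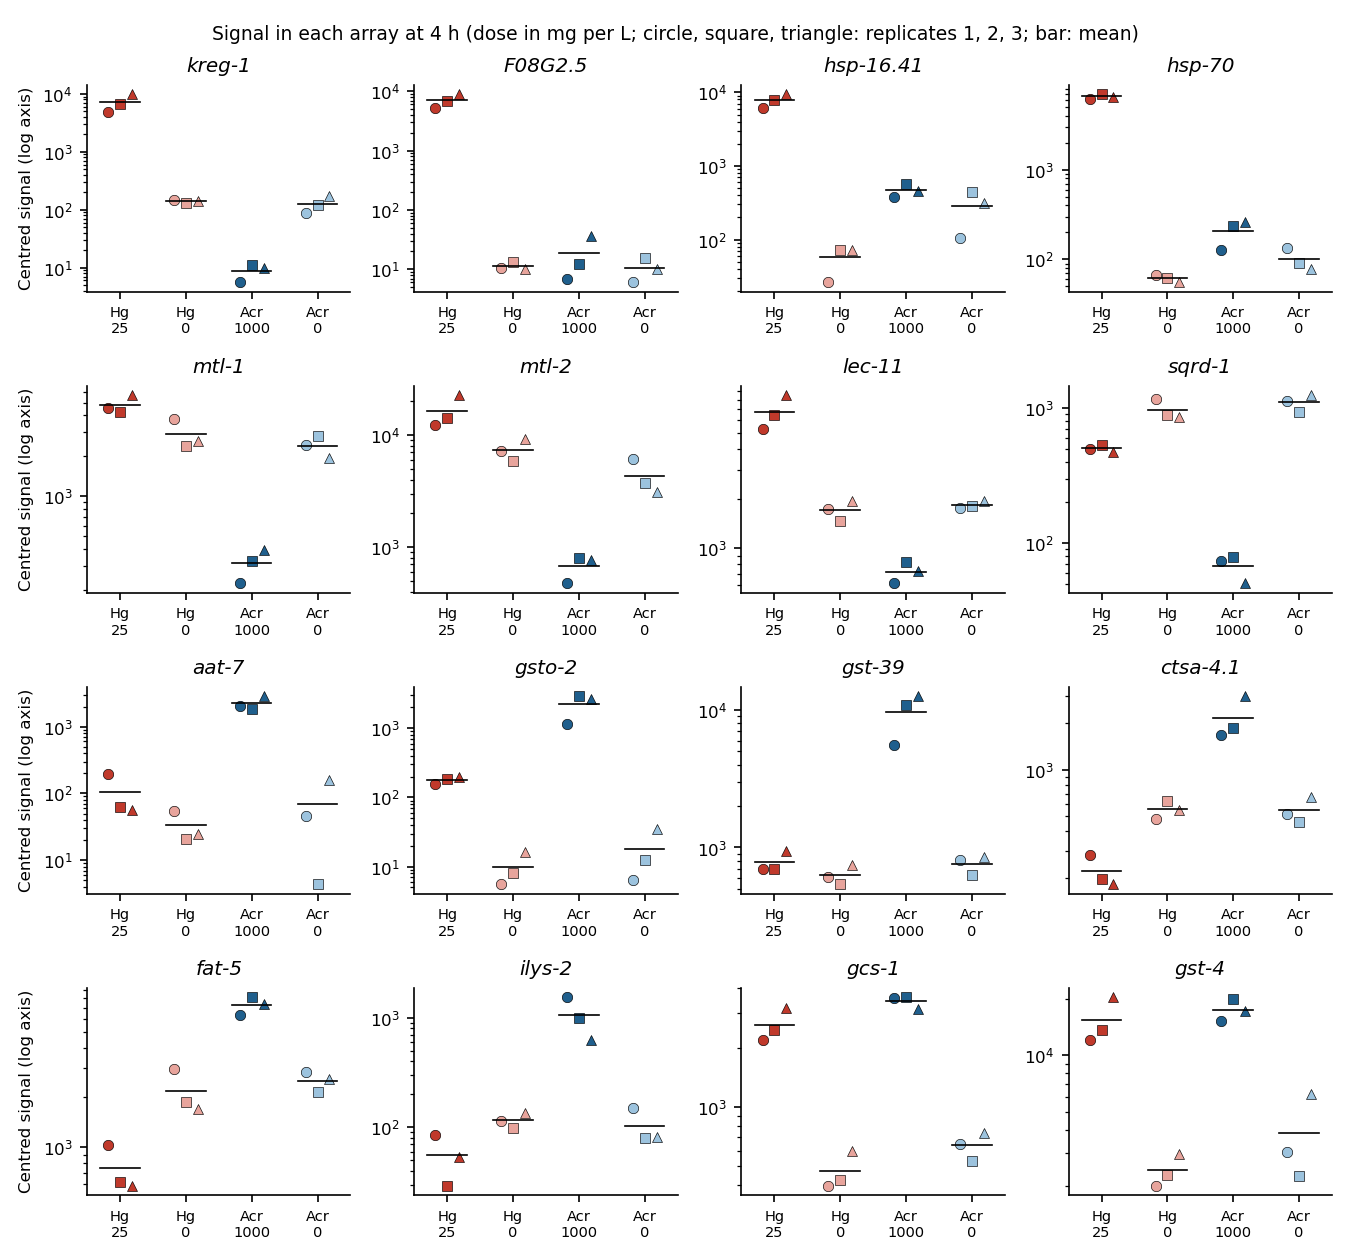
Centred signal (log axis) of 16 genes in each of the 12 arrays at 4 h; groups are mercury 25 mg per L, mercury control, acrylamide 1000 mg per L and acrylamide control, symbols are replicates and bars are means. The mercury-exposed arrays stand alone for F08G2.5, hsp-16.41 and hsp-70, the acrylamide-exposed arrays stand alone for mtl-1, sqrd-1, aat-7 and gst-39, and gcs-1 and gst-4 are raised in both.

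Other genes on the mercury side were set apart by what acrylamide did. sqrd-1 encodes sulfide quinone oxidoreductase, the mitochondrial enzyme that oxidises hydrogen sulfide. Its signal was 500, 536 and 473 in mercury-exposed worms, 1171, 886 and 855 in the mercury controls, 73.9, 78.6 and 50.2 in acrylamide-exposed worms and 1129, 929 and 1246 in the acrylamide controls. Both exposures lowered it without overlap with their controls, mercury by 0.87 and acrylamide by 3.27, and the difference was 2.40 ± 0.33 (SE, adjusted p = 3.8e-07). It was the single call among 15 genes of hypoxia and hydrogen sulfide. irg-8, an infection response gene by name, had 111, 196 and 221 in acrylamide-exposed worms against 1614 to 2895 in the other 9 arrays, and differed by 3.49 (adjusted p = 6.7e-09).

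Genes that rose with mercury alone covered several functions. swt-6, a gene of the SWEET sugar transporter family, had 2387, 5202 and 2678 in mercury-exposed worms, 175, 146 and 195 in their controls, 247, 307 and 276 in acrylamide-exposed worms and 157, 281 and 262 in theirs. The acrylamide groups overlapped, and the difference was 3.64 ± 0.59 (SE, adjusted p = 1.5e-05). cld-9 differed by 3.56, with 2484 to 3807 in mercury-exposed worms and 96.6 to 236 in the other 9 arrays. Of 14 genes of lysosomal lipases and fasting, 2 were called higher, and none lower (1 lower without replicate 3 of the acrylamide controls): fil-1, a fasting-induced lipase gene, at 3.29 (adjusted p = 8.6e-07), and acs-2, an acyl-CoA synthetase gene induced by fasting, at 2.77 (adjusted p = 0.00058). fil-1 had 1749, 2398 and 3482 in mercury-exposed worms against 336, 467 and 530 in their controls, and 161, 267 and 210 in acrylamide-exposed worms against 535, 511 and 330 in theirs. Neither pair of groups overlapped, though the acrylamide effect of -0.94 was not called (adjusted p = 0.073).

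Antimicrobial peptide genes of the epidermis, which worms switch on after infection or wounding of the skin, were on the mercury side in 3 of 10 tested, with none on the other side and a median difference of 0.94. nlp-28 had 2166, 2945 and 3041 in mercury-exposed worms, 476, 575 and 464 in their controls, 836, 531 and 830 in acrylamide-exposed worms and 663, 559 and 423 in theirs. Mercury-exposed arrays stood apart and acrylamide groups overlapped, with a difference of 1.92 (adjusted p = 0.0019). cnc-4 differed by 2.21 (adjusted p = 0.016), and leaving out replicate 3 of the mercury-exposed worms, replicate 1 of their controls or replicate 2 of the acrylamide-exposed worms ended the call (2.02 each). nlp-29 differed by 1.5 (adjusted p = 0.049), a call lost in 10 of the 12 leave-outs (1.22 to 1.69). Both nlp-28 and nlp-29 were read from probe sets with the cross-hybridization suffix, so their signals may be shared. Among 17 stress bZIP transcription factor genes, 3 were called higher and none lower. zip-10 had 2136, 2575 and 3021 in mercury-exposed worms and 389 to 517 in the other 9 arrays, and zip-5 1717 to 2433 against 467 to 818. Their differences were 2.3 (adjusted p = 8.6e-08) and 1.95 (adjusted p = 0.0027). The third, zip-11, fell by 1.17 with acrylamide, and its call (1.47, adjusted p = 0.043) was lost in 9 of the 12 leave-outs. Without a pseudocount the difference of zip-11 was 3.91.

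Nuclear hormone receptor genes, which encode ligand-controlled transcription factors, had 7 higher and 8 lower of 182 tested. This was 8.24% called, against 2.95% of all genes. The counts were 4 higher and 8 lower without replicate 3 of the acrylamide controls, and 7 and 5 without replicate 1 of these controls. Without replicate 1 of the acrylamide-exposed worms they were 4 and 9. nhr-6, the NR4A receptor gene, had 699, 903 and 772 in mercury-exposed worms and 101 to 350 in the other 9 arrays, a difference of 1.97 (adjusted p = 0.00041). nhr-106 went the other way, with 10.7, 10.2 and 12.9 in mercury-exposed worms, 71.5, 106 and 210 in their controls, 351, 379 and 501 in acrylamide-exposed worms and 120, 168 and 73.6 in theirs. It fell with mercury and rose with acrylamide without overlap in either pair, by -2.89 ± 0.40 in all (SE, adjusted p = 4.3e-07), and its mercury-exposed signals lay under the pseudocount, without which the difference was -5.21. Among 48 ABC transporter genes, pgp-9 and abt-4 were higher, by 1.94 and 2.33. pgp-9 had 1516 to 2023 in mercury-exposed worms and 236 to 440 in the other 9 arrays. The calls of the 2 ABC transporters on the lower side, pgp-2 and mrp-3, were lost in 7 and 9 of the 12 leave-outs, and without replicate 1 of the acrylamide controls none was lower. Of 30 genes named oac, after their homology to O-acyltransferases, 5 were higher and 2 lower, a list added after the values were seen. oac-14 had 3037, 3248 and 3647 in mercury-exposed worms, 112, 89.8 and 63.5 in their controls, 782, 408 and 307 in acrylamide-exposed worms and 79.6, 111 and 98.1 in theirs. Both chemicals raised it, mercury by 4.59 and acrylamide by 1.81, with a difference of 2.78 (adjusted p = 4.1e-06).

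Several conjugating enzyme genes had a lower mercury effect. Of 41 glutathione S-transferase genes tested, 10 had a lower mercury effect and 2 a higher one, with a median difference of -0.50. In both responses most called members rose: 22 members were higher and 6 lower with mercury, and 25 higher and 5 lower with acrylamide, so the difference was one of size in most of them. For gst-39 the signal was 696, 694 and 943 in mercury-exposed worms, 613, 538 and 745 in the mercury controls, 5540, 10846 and 12624 in acrylamide-exposed worms and 812, 628 and 850 in the acrylamide controls. Only the acrylamide-exposed arrays stood apart, and the difference was -3.23 ± 0.42 (SE, adjusted p = 1.1e-07). gst-31 had 349, 208 and 207 in mercury-exposed worms, 52, 53.8 and 52.3 in their controls, 2649, 4390 and 4606 in acrylamide-exposed worms and 92, 112 and 203 in theirs. Mercury raised it by 1.52 and acrylamide by 4.39. gst-40 rose by 0.81 with mercury and 3.55 with acrylamide, and its difference of -2.74 had a small error (0.30, adjusted p = 2.1e-09). gsto-2, an omega class transferase gene, had 154, 183 and 194 in mercury-exposed worms and 1151, 2899 and 2605 in acrylamide-exposed worms, against 5.52 to 34.7 in the 6 control arrays. Its difference was -3.05 (adjusted p = 3.6e-06) but its control signals lay under the pseudocount, and without one it was -2.90 and not called (adjusted p = 0.076). The 2 members on the other side, gst-22 and gst-36, named after their values were seen, differed by 2.43 and 1.98, with mercury effects of 2.08 and 1.32 and acrylamide effects of -0.35 and -0.66.

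SKN-1 targets and genes of glutathione synthesis were raised by both chemicals, 15 of 20 tested by each and none lowered, and 5 had a lower mercury effect. The median effect was 1.52 for mercury and 2.20 for acrylamide, and the median difference -0.46. nit-1, a nitrilase gene, had 1230, 1284 and 1597 in mercury-exposed worms, 363, 267 and 321 in their controls, 3439, 4529 and 6665 in acrylamide-exposed worms and 313, 326 and 437 in theirs. Exposed and control arrays were apart in both series, and the difference was -1.60 ± 0.28 (SE, adjusted p = 7.4e-05). wdr-23, the repressor that targets SKN-1 for degradation, rose by 0.92 with mercury and 2.39 with acrylamide, a difference of -1.47 (adjusted p = 0.0075). gspd-1, named after its values were seen, which encodes glucose-6-phosphate dehydrogenase, a source of NADPH, had effects of 0.30 and 1.62 and a difference of -1.31 (adjusted p = 0.025). gst-12 and gst-5 differed by -2.23 and -1.97. The call of gst-12 was lost without replicate 1 of the acrylamide controls (-1.87) and without a pseudocount (-1.95, adjusted p = 0.23), and that of gst-5 in 7 of the 12 leave-outs (-2.40 to -1.74). The counts of both lists, 10 and 5 lower, were the same without replicate 3 of the acrylamide controls, in which gst-12 had 377 against 69.3 and 100 in the other controls. Without replicate 1 of these controls the counts were 7 and 2 lower.

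The genes most used to report SKN-1 activity, gcs-1 and gst-4, did not differ by call. gcs-1, which encodes the enzyme that starts glutathione synthesis, had 2182, 2469 and 3171 in mercury-exposed worms, 399, 426 and 599 in their controls, 3571, 3597 and 3153 in acrylamide-exposed worms and 647, 529 and 737 in theirs. Its effects were 2.34 and 2.35, and the difference -0.01 had a 95% interval of -0.70 to 0.68. Another tested probe set of gcs-1 had a difference of -0.62. gst-4 had effects of 2.61 and 2.29 and a difference of 0.33 with an interval of -0.43 to 1.08.

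In other detoxifying families the called members mostly had a lower mercury effect, through a rise with acrylamide, a fall with mercury or both. UDP-glucuronosyltransferases, which add sugar acids to foreign compounds, had 8 lower and none higher of 57 tested (18 and 5 at an unadjusted p under 0.05), with a median difference of -0.45, and 7 lower and 1 higher without replicate 1 of the acrylamide controls. They reached that by different routes. ugt-2 rose with acrylamide, to 900, 1370 and 1279 against 157, 147 and 166 in its controls, with 367, 426 and 280 in mercury-exposed worms against 210, 188 and 230 in theirs. ugt-6 fell with mercury, to 292, 155 and 129 in mercury-exposed worms against 2644, 1888 and 2098 in their controls, with 1584, 1763 and 1832 in acrylamide-exposed worms against 1457, 2129 and 1791 in theirs. Their differences were -1.91 (adjusted p = 0.0014) and -3.22 (adjusted p = 5.6e-05). ugt-32 did both, falling by 0.73 with mercury and rising by 1.35 with acrylamide. Cytochromes P450, oxidases of foreign and own compounds, had 6 lower and none higher of 51 (11 and 1 unadjusted), with a median difference of -0.17. Without replicate 1 of the acrylamide controls 5 were lower, with a median of -0.04. Without replicate 1 of the acrylamide-exposed worms 5 were lower, with a median of -0.26. Of the 6, cyp-34A9 had 174, 145 and 188 in mercury-exposed worms, 62.8, 139 and 107 in their controls, 1474, 1778 and 1416 in acrylamide-exposed worms and 83.5, 108 and 212 in theirs. Only the acrylamide-exposed arrays stood apart, with a difference of -2.62 (adjusted p = 3.6e-06). cyp-14A5 also rose with acrylamide alone, by 1.22. cyp-32B1 and cyp-25A1 fell with mercury alone, by 1.36 and 0.87. cyp-14A5 and cyp-25A1 were named after their values were seen. cyp-37B1 fell by 2.82 with mercury and 1.11 with acrylamide, and the call of its difference was lost in 6 of the 12 leave-outs (-2.05 to -1.5). cyp-33A1 had effects of -0.62 and 0.76. Of 17 antioxidant enzyme genes, the 2 glutathione peroxidase genes gpx-7 and gpx-1 were lower, by -1.64 and -1.27. gpx-7 fell by 1.04 with mercury, and its acrylamide effect of 0.60 was not called. gpx-1 rose by 1.68 with acrylamide, and its mercury effect of 0.42 was not called. sod-3, for a superoxide dismutase, had a difference of 0.78 that was not called (adjusted p = 0.43).

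Amino acid transporter genes named aat, a list added after the values were seen, had 3 lower of 9. With the pseudocount, aat-7 held the most negative difference of all genes, -3.65 ± 0.61 (SE, adjusted p = 2.6e-05). Without one it was -4.61, and 3 genes were more negative, clec-56 (-5.31), nhr-106 (-5.21) and stdh-2 (-5.0, not called, adjusted p = 0.24, named after its values were seen). Its signal was 193, 62.1 and 57 in mercury-exposed worms, 54.8, 20.9 and 24.8 in the mercury controls, 2066, 1829 and 2864 in acrylamide-exposed worms and 45.2, 4.33 and 158 in the acrylamide controls. The mercury-exposed arrays exceeded their controls, with an effect of 0.78 that was not called (adjusted p = 0.28), and the acrylamide-exposed arrays stood above all others. aat-1 had 953 to 1139 in mercury-exposed worms against 761 to 873 in their controls, and 5030 to 7614 in acrylamide-exposed worms against 808 to 1079 in theirs, a difference of -2.25. ilys-2, of the invertebrate lysozymes that digest bacterial walls, had 85.1, 29.4 and 53.8 in mercury-exposed worms, 114, 98.7 and 136 in their controls, 1542, 996 and 625 in acrylamide-exposed worms and 151, 79.6 and 81.5 in theirs. Its difference was -3.43 ± 0.51 (SE, adjusted p = 1.9e-06), and that of its neighbour ilys-3 was -2.20. C06E4.3 differed by -3.09, through acrylamide, but was not called without a pseudocount (adjusted p = 0.075).

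A further group had a lower mercury effect because mercury lowered it. amt-4, an ammonium transporter gene, had 95.8, 28.9 and 42.7 in mercury-exposed worms, 614, 414 and 493 in their controls, 912, 1187 and 1028 in acrylamide-exposed worms and 603, 460 and 509 in theirs. Mercury-exposed arrays were the lowest and acrylamide-exposed arrays the highest, with a difference of -3.33 ± 0.46 (SE, adjusted p = 3.8e-07). Y16B4A.2 had 343 to 523 in mercury-exposed worms and 1920 to 3767 in the other 9 arrays, and differed by -3.03. ltah-1.2 differed by -3.48, with 337, 42.2 and 55.4 in mercury-exposed worms against 851 to 1136 in their controls. In lipid metabolism, 2 of 15 genes for fatty acid desaturases and elongases were lower and none higher. elo-6, an elongase gene for branched and polyunsaturated fatty acids, had 3313, 1517 and 1423 in mercury-exposed worms, 12888, 11609 and 10494 in their controls, 7210, 9225 and 8587 in acrylamide-exposed worms and 10296, 9528 and 9803 in theirs. Both exposed groups lay below their controls, mercury by 2.56 and acrylamide by 0.25 (adjusted p = 0.74), and the difference was -2.31 (adjusted p = 6.5e-05). The C-type lectin gene clec-56 had 8.36, 6.58 and 6.87 in mercury-exposed worms, 583, 795 and 847 in their controls, 398, 253 and 175 in acrylamide-exposed worms and 992, 523 and 570 in theirs. Both chemicals lowered it, mercury by 3.73 and acrylamide by 1.19, a difference of -2.53 (adjusted p = 0.00027). Its mercury-exposed signals lay under the pseudocount, and without one the mercury effect was -6.66, the acrylamide effect -1.36 and not called (adjusted p = 0.12), and the difference -5.31. The C-type lectin family, pathogen-responsive secreted proteins among them, had 2 higher and 4 lower of 135. This was 4.44% called, near the 2.95% of all genes. The counts were 2 and 2 without replicate 3 of the acrylamide controls, and 2 and 7 without replicate 1 of the acrylamide-exposed worms.

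Gut markers moved with these groups. Of 15 genes listed as intestine markers, 4 were lower (lys-4, pept-1, pho-1 and ges-1, the last named after its values were seen) and 1, mtl-2, higher, with a median difference of -0.72. Mercury lowered 9 and raised 2, and acrylamide lowered 4 and raised 1. Their summed signal was 53576 to 84039 in mercury-exposed worms against 82653 to 110185 in the mercury controls, and 62332 to 85529 in acrylamide-exposed worms against 67390 to 95905 in the acrylamide controls. The sum includes mtl-2, which moved against most of the list with mercury, at 12290, 14125 and 22828 against 7211, 5828 and 9160. With acrylamide mtl-2 fell, to 474, 795 and 760 against 6177, 3774 and 3111. Sums without mtl-2 were not taken. No defining gut marker was near 0 in any array, and the part of this shift in the results above was not tested. pept-1, the gut peptide transporter gene, had 359, 416 and 279 in mercury-exposed worms, 3227, 3465 and 2736 in their controls, 1017, 1158 and 1184 in acrylamide-exposed worms and 3137, 1762 and 1899 in theirs. Both exposures lay below their controls without overlap, and the difference of -2.05 (adjusted p = 0.016) lost its call without replicate 3 of the mercury-exposed worms (-1.92) or replicate 2 of the acrylamide controls (-1.90). The acid phosphatase gene pho-1 had 463, 265 and 304 in mercury-exposed worms and 1240 to 1959 in the other 9 arrays, a difference of -1.89 (adjusted p = 0.0018). Markers of body wall muscle, pharyngeal muscle, neurons, hypodermis, germline and sperm had no called difference in 70 genes tested (limma, with 2 at an unadjusted p under 0.05). The summed body wall muscle signal was 24154 to 29394 in mercury-exposed worms against 38300 to 53768 in their controls, and 23805 to 25867 in acrylamide-exposed worms against 30741 to 51636 in theirs.

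**Figure D3:**
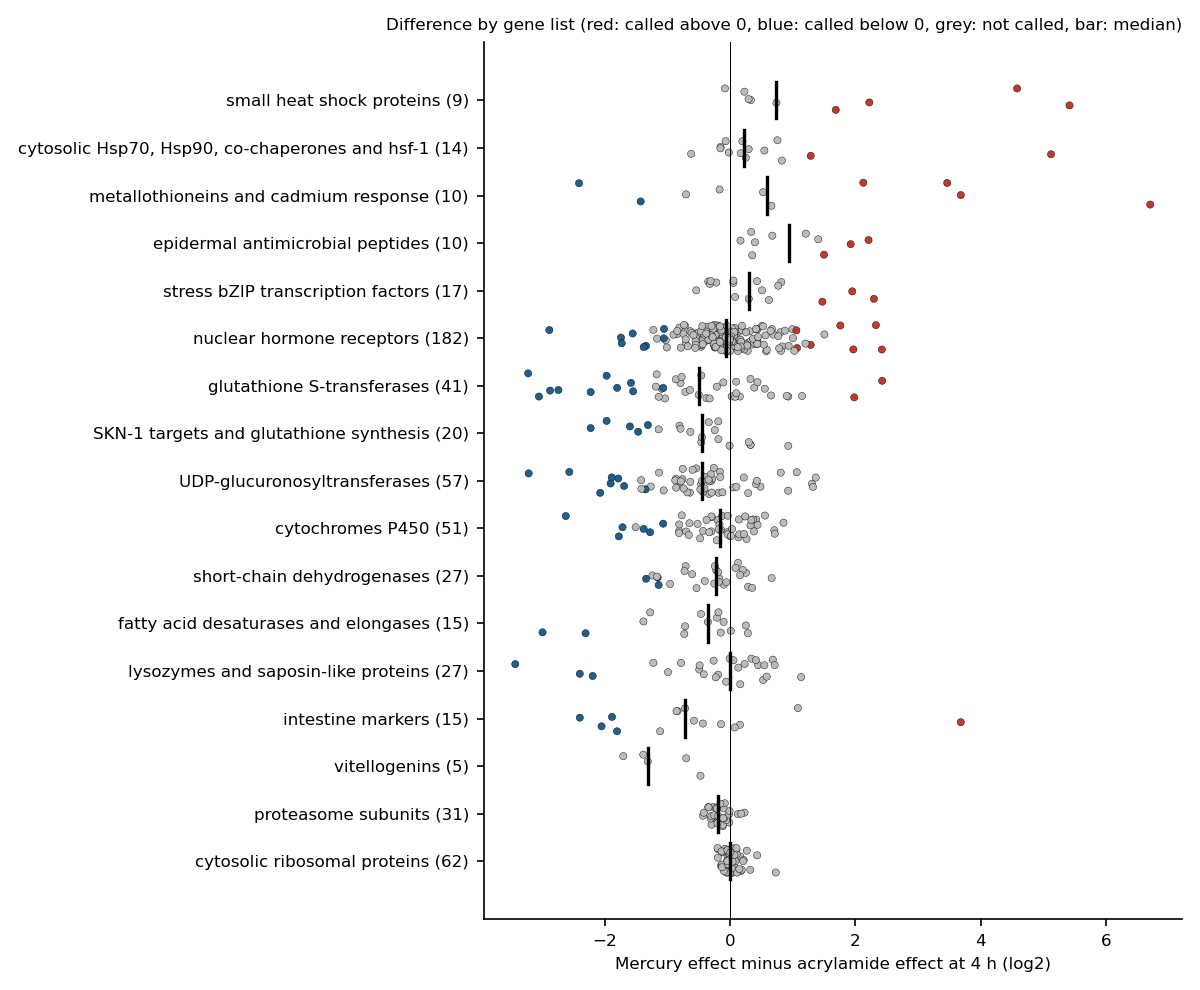
Difference of effects at 4 h (log2) of every tested member of 17 gene lists, with the number tested in brackets; red and blue points are called above and below 0, grey points are not called and bars are medians. Small heat shock genes and epidermal peptide genes lie to the right, conjugating enzymes to the left, and proteasome and ribosomal protein genes stay near 0.

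Broad housekeeping groups did not differ by call. None of 62 cytosolic ribosomal protein genes, 31 proteasome subunit genes or 14 chaperonin and prefoldin genes was called, nor did any have an unadjusted p under 0.05 in limma, and their differences ran from -0.20 to 0.73, -0.43 to 0.23 and -0.11 to 0.72. Genes of the mitochondrial unfolded protein response (9), DNA replication (22), DNA damage (15) and autophagy (20) had no call either, with 3 unadjusted in all. The 5 vitellogenin genes, for yolk proteins, all fell with mercury and had no call with acrylamide, though acrylamide lowered 2 without replicate 3 of its controls and 1 without replicate 1 of its exposed worms. Their differences of -1.71 to -0.47 did not pass the test, with none at an unadjusted p under 0.05. In all, 22 of 54 lists had no called member, and 15 of their 541 genes had an unadjusted p under 0.05, some genes counted in more than 1 list.

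In 35 genes both effects were called with opposite signs, 17 up with mercury and down with acrylamide and 18 the reverse. The difference was called for every one of the 35, which their selection by called effects of opposite sign made all but certain. After kreg-1, the strongest in the first direction was K11H12.4, with 6426, 9013 and 10414 in mercury-exposed worms, 1061, 1020 and 1319 in their controls, 228, 404 and 360 in acrylamide-exposed worms and 627, 933 and 1871 in theirs. Neither pair overlapped, and the difference was 4.39 ± 0.54 (SE, adjusted p = 3.8e-08). lec-11, a galectin gene, had 5300, 6425 and 8550 in mercury-exposed worms, 1723, 1462 and 1947 in their controls, 612, 831 and 723 in acrylamide-exposed worms and 1769, 1796 and 1930 in theirs. Its effects were 1.93 and -1.29 and its controls lay close together. K08D8.5, ZK896.5, ZK105.1, F35E12.9 and txt-9 had mercury effects of 1.31 to 2.41 and acrylamide effects of -1.52 to -1.16.

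In the reverse direction, fat-5 encodes a delta-9 desaturase that makes monounsaturated fatty acids from palmitic acid. It had 1025, 618 and 585 in mercury-exposed worms, 2958, 1879 and 1703 in their controls, 6324, 8079 and 7369 in acrylamide-exposed worms and 2846, 2148 and 2579 in theirs. It fell by 1.49 with mercury and rose by 1.51 with acrylamide, without overlap in either series. ctsa-4.1 had 282, 198 and 182 in mercury-exposed worms, 484, 631 and 547 in their controls, 1680, 1842 and 2974 in acrylamide-exposed worms and 517, 459 and 671 in theirs, with effects of -1.16 and 1.85. mbug-1 had effects of -1.17 and 1.82, Y32F6B.1 of -1.56 and 1.26, the carboxylesterase gene cest-1.2 of -1.48 and 0.96, and dod-3, named as downstream of the insulin pathway factor DAF-16, of -1.24 and 1.11. Genes named dod, a list added after the values were seen, moved in unlike ways: dod-22 rose by 2.94 with mercury alone and dod-17 rose with both, by 1.63 and 3.72.

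Many of the largest changes did not differ by call between the chemicals. Among genes raised by both, 249 had no called difference, and 260 among those lowered by both. clec-9, a C-type lectin gene, had 5331, 5691 and 8012 in mercury-exposed worms, 1.99, 6.69 and 16 in their controls, 3356, 5706 and 3621 in acrylamide-exposed worms and 6.11, 3.57 and 179 in theirs. Its difference was 1.19 with a 95% interval of -0.08 to 2.47, and without a pseudocount 2.00 (adjusted p = 0.76). The ferritin gene ftn-1, for iron storage, had 4541, 4908 and 6236 in mercury-exposed worms, 285, 219 and 329 in their controls, 10566, 16746 and 17231 in acrylamide-exposed worms and 254, 280 and 1230 in theirs. Replicate 3 of the acrylamide controls was the high one in both genes. Without it ftn-1 differed by -1.51 and was called (adjusted p = 0.024), against -0.84 (adjusted p = 0.62) with it. ZK742.4 was also called without it, at -1.58, against -1.13 with it. gst-30 had 1149 in that control array against 57 and 74.8 in the other controls, and its difference was -1.58 without it (adjusted p = 0.19) and -0.46 with it. W06H8.2, with 1365 in it against 37.9 and 84.9 in the other controls, had -1.40 without it and -0.18 with it. Other genes raised by both and without a called difference were gst-38, F56D5.3, cdr-4 and ugt-13, with differences of -0.64 to 0.93.

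On the falling side, rips-1 had 248, 108 and 93.1 in mercury-exposed worms, 1931, 1684 and 1671 in their controls, 26.8, 17.5 and 7.67 in acrylamide-exposed worms and 1928, 1517 and 1692 in theirs. All exposed arrays were low and the acrylamide-exposed arrays the lowest, with effects of -3.25 and -4.67. The difference of 1.43 was not called (adjusted p = 0.075), and without a pseudocount it was 3.10 and called. acox-1.2, for a peroxisomal acyl-CoA oxidase, fell by 3.75 and 3.10, and the astacin protease gene nas-27 by 3.83 and 3.85. lipl-1, a lysosomal lipase gene, fell by 3.21 and 2.25 and lys-6, a lysozyme gene, by 2.23 and 2.22. Peroxisomal beta-oxidation as a list had 11 of 15 genes lowered by mercury and 6 by acrylamide, with 1 higher and 1 lower difference (ech-9 and dhs-28, each lost in some leave-outs, 4 and 8 of 12). Without replicate 3 of the acrylamide controls neither difference was called, and acrylamide lowered 4.

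At lower doses the values were read against the same 4 h controls, so they are set side by side and not tested against the high dose. Mercury was given at 5 and 10 mg per L besides 25, and acrylamide at 100 and 500 mg per L besides 1000. kreg-1 had effects of -0.09, 4.08 and 5.17 over the mercury doses and of -0.59, -0.60 and -1.54 over the acrylamide doses. hsp-16.41 was already at 5.22 at the lowest mercury dose, then 6.26 and 6.18, against -0.26, 0.12 and 0.76 with acrylamide. mtl-2 had effects of 1.48, 1.21 and 1.12 with mercury and of -0.23, -1.39 and -2.57 with acrylamide. kreg-1 was near 0 at the lowest mercury dose, as was lec-11, with mercury effects of -0.17, 1.47 and 1.93. On the acrylamide side, gst-39 had effects of 0.76, 2.73 and 3.5 with acrylamide and -0.06, 0.20 and 0.28 with mercury. aat-7 had its largest mercury value at the lowest dose, 3.06, then 2.16 and 0.78, against 1.78, 3.83 and 4.44 with acrylamide. The mercury effects of fat-5 were 1.12, -0.36 and -1.49. The 41 glutathione S-transferase genes had median changes of 0.25, 0.95 and 1.00 with mercury and 0.24, 0.79 and 1.08 with acrylamide.

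**Figure D4:**
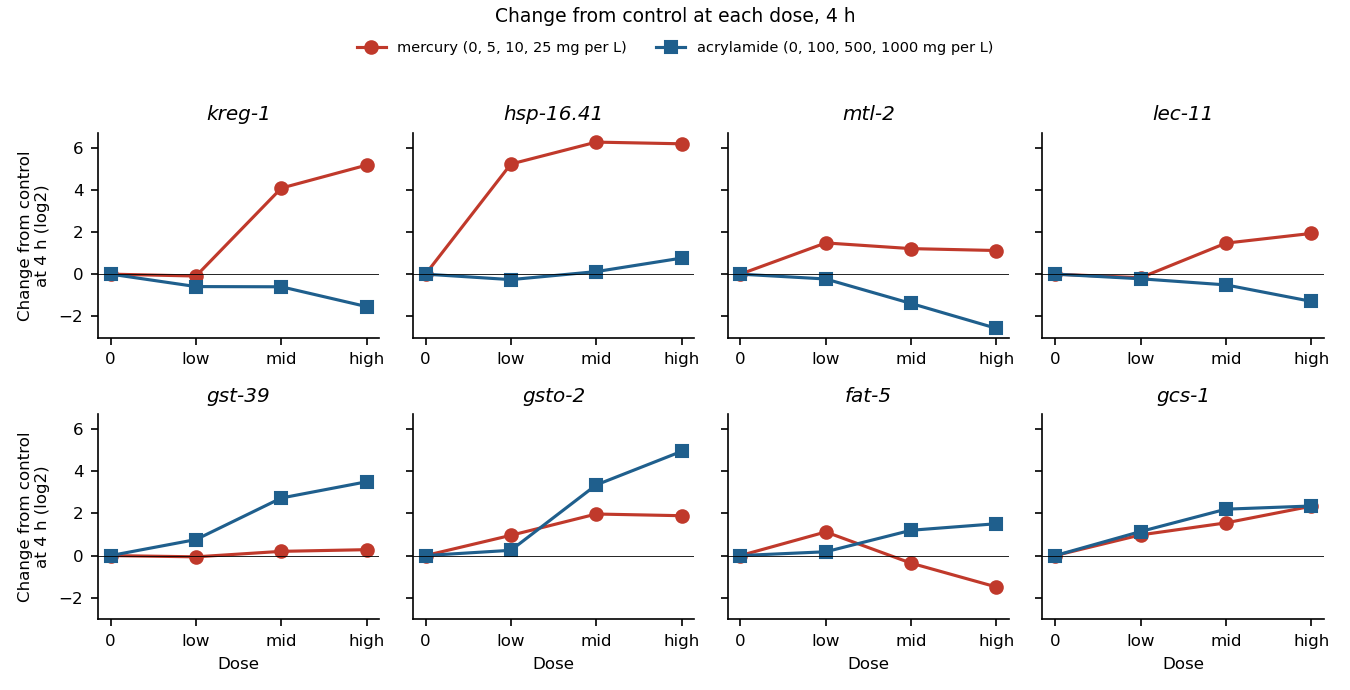
Change from the 4 h control (log2) of 8 genes at 0, low, middle and high dose of mercury (circles) and acrylamide (squares); dose steps are not to scale and the doses of the chemicals are not matched. hsp-16.41 is at 5.22 at the lowest mercury dose, kreg-1 rises from the middle dose, and gcs-1 runs alike in both series.

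The same difference was measured at 8 h in 12 other arrays with their own controls. Of the 399 genes called at 4 h, 391 (98.0%) had the same sign at 8 h, against 61.2% of all genes tested, and 260 (65.2%) were called in the same direction, 141 of them lower. At 8 h, 490 genes were called in all (3.63%, with 1.93% higher and 1.7% lower), and by probe set the split was 330 higher (1.85%) and 265 lower (1.49%), or 228 and 305 with the authors' scaling. The differences of the 399 genes at 4 h and 8 h had a Pearson correlation of 0.943, given as a description. F08G2.5 differed by 6.93 at 8 h, hsp-70 by 5.86, hsp-16.41 by 5.50, kreg-1 by 5.24, ilys-2 by -4.43 and aat-7 by -4.62. hsp-4, without a call at 4 h, differed by 2.20 at 8 h (adjusted p = 4.1e-07), and ftn-1 by -1.66 (adjusted p = 0.019). acs-2 had 2.77 at 4 h and -0.32 at 8 h, a change that did not pass the test of the difference between times (adjusted p = 0.54). That test passed for 1 gene (0.0074%), F41D3.11, named after its values were seen, at 2.39 at 4 h and -0.48 at 8 h (change -2.87, adjusted p = 0.0089). None of the 8 genes with opposite signs was called at 8 h.

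**Figure D5:**
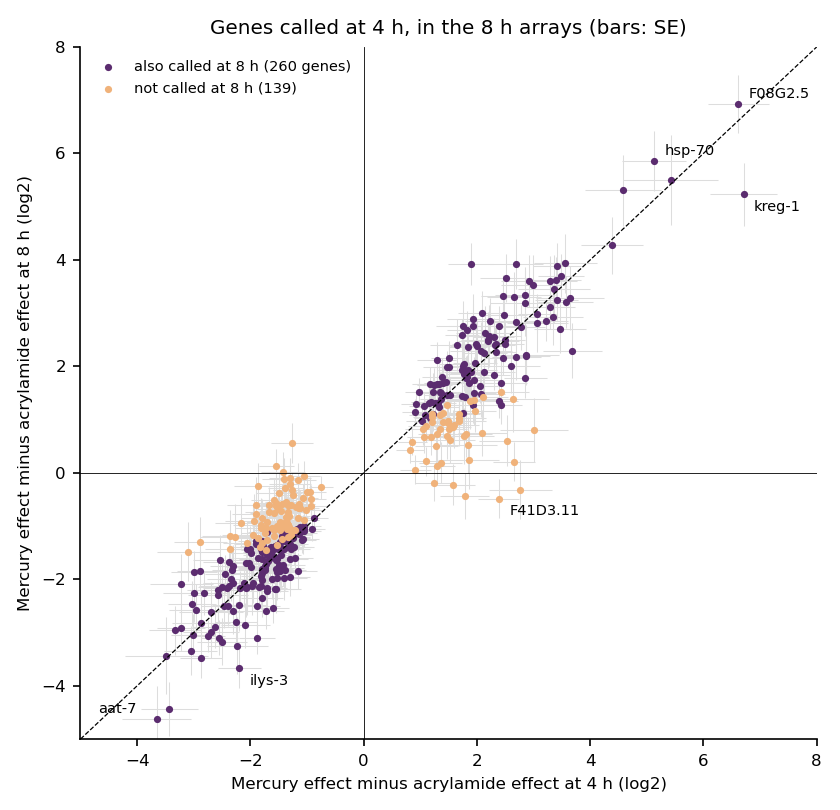
Mercury minus acrylamide difference at 8 h against that at 4 h (log2, bars are standard errors) for the 399 genes called at 4 h; the dashed line marks equal values. The 260 purple points were also called at 8 h; most genes lie near the line, and F41D3.11 lies below 0 at 8 h.

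Cadmium, the other metal of the series, was given at 50 mg per L with controls of its own. Of the 168 genes with a higher mercury effect, cadmium raised 71 and lowered 6 at 4 h, where it raised 4.01% and lowered 7.66% of all genes tested. Of the 231 with a lower mercury effect, cadmium raised 24 and lowered 67. F08G2.5 rose by 5.31 with cadmium, hsp-16.41 by 5.01 and hsp-70 by 3.14. Several other mercury-raised genes had small cadmium values, with 1.06 for kreg-1 (adjusted p = 0.093), 0.07 for cnc-4 and 0.07 for ZK896.5. cdr-1, at 5.73, was higher with cadmium than with mercury (2.92), a pair of values not tested against each other.

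Neighbouring genes were often called together. In gene order, taken from RefSeq for protein-coding genes, 31 of 167 placed genes with a higher mercury effect (18.6%) had an adjacent gene called in the same direction, against 1.8% of the 13033 placed genes tested. For the lower side these were 16 of 226 (7.1%) against 2.4%. The adjacent genes on the higher side include hsp-16.2 with hsp-16.41, nlp-28 with nlp-29, K11H12.3 with K11H12.4 and F35E12.9 with cld-9 by way of F35E12.10, and on the lower side gst-29, gst-39 and gst-31 in a row and ilys-2 with ilys-3. Of these, K11H12.3, F35E12.10 and gst-29 were named after their values were seen. Adjacent genes of 1 family can be near copies, and signals of such copies may be shared between probe sets. Of the called genes, 86 (21.6%) were read from a probe set with a cross-hybridization suffix, against 24% of those tested. They include hsp-70, mtl-2, nlp-28, nlp-29, K11H12.4, lec-11, nhr-6, amt-4, Y16B4A.2, Y32F6B.1, ltah-1.2, elo-6, cest-1.2, dod-3, lys-4, mrp-3 and cyp-32B1. Among genes without a call, ftn-1, hsp-4, cdr-4, lys-6 and ZK742.4 were read from such probe sets.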

How the data were processed

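Worms in 27 groups were read on 80 Affymetrix arrays. Signal intensity values on a linear scale were made by the authors with MAS5, per the submitters' processing notes; its version and scaling target are not given in the sources used here, and detection calls were not used. The deposited intensity values have trimmed means near 500.1 in the 12 arrays compared. Depth has no counterpart on arrays, and their number limits the precision.

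Array controls (77 of 22625 probe sets) did not enter; 20766 of the others have 1 gene symbol, 887 several and 895 none, and only the first were named. Arrays were centred on their common median (202.9), a pseudocount of 52 (the 20th percentile) was added, and log2 values were taken. Probe sets above 132 (the 40th percentile) on at least 3 arrays were tested, 17808 in all. One limma 3.58.1 fit (R 4.3.3) over all 80 arrays gave the contrasts, with eBayes and an intensity trend, and p-values were adjusted by Benjamini-Hochberg over all probe sets tested. A gene was represented by 1 probe set, without a cross-hybridization suffix where it had one and then the brightest. The script was tested on simulated data. Named genes are up to 12 in each direction of largest called difference with exposed arrays apart, up to 8 in each direction called in both effects with opposite signs, up to 8 in each direction called in both with the same sign and no called difference, up to 4 called members of each gene list, and a short list of reporters; others are marked as named after their values were seen. The members and lists were chosen with earlier results of these data known. Alternatives covered scaling, pseudocount, filter, trend, arrays fitted, the replicate block and each array left out. Exposed and control arrays of the same number correlated in their deviations from group means at 0.162, 0.309 and 0.285 for mercury, each over 0.1, so the numbers were taken to pair the mercury arrays. For acrylamide they correlated at 0.507, 0.076 and 0.35, and exposed replicate 2 correlated better with control replicate 3 (0.142), so there the numbers were not taken as pairs, nor for the difference. The mercury effects and p-values given above still come from the fit without pairs. The replicate block, which does pair the arrays, is only among the alternatives. Figures were drawn with matplotlib 3.10.9.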

Additional observations from a re-analysis of the deposited data

Results flagged for a closer look

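Of the 35 genes whose mercury and acrylamide effects were both called with opposite signs, 16 were named by rule. They were the 8 in each direction that ranked highest by the smaller of their absolute effects. With a rise under mercury and a fall under acrylamide these were kreg-1 (difference 6.71), K11H12.4 (4.39), K08D8.5 (3.57), ZK896.5 (3.42), ZK105.1 (3.36), lec-11 (3.22), F35E12.9 (2.69) and txt-9 (2.66). With a fall under mercury and a rise under acrylamide they were ctsa-4.1 (-3.02), fat-5 (-3.0), mbug-1 (-3.0), nhr-106 (-2.89), Y32F6B.1 (-2.82), cest-1.2 (-2.44), cdr-2 (-2.41) and dod-3 (-2.35). For F41D3.11 the test between times passed, and its difference at 8 h minus that at 4 h was -2.87.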

How the results depend on the processing

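Over probe sets, the difference was called for 476, and for 369 to 435 with each of the 12 arrays left out in turn. The number was 402 with the authors' scaling, 587 after quantile normalization, 442 without a pseudocount, 453 with only the 12 arrays fitted and 584 with the replicate number as a block, and under the 22 alternatives no called difference of a named gene changed sign, while 11 of 23 named genes without a call did, such as ugt-13, gst-30, W06H8.2 and gst-4. The controls of the chemicals differed in 1 probe set, and in 0 with the authors' scaling, 4 after quantile normalization, 2 without a pseudocount, 7 with a pseudocount at the 40th percentile and 30 with the replicate block. The change between 4 h and 8 h, with 1 call and 549 at an unadjusted p under 0.05 in limma, had 3 after quantile normalization, 0 without a pseudocount, 3 with a pseudocount at the 40th percentile, 2 without a filter, 0 with a filter on mean signal and 2 without a variance trend. The cause was not tested. Of 102 named genes with a called difference, 77 were called under every alternative, and of 23 without one, 19 under none. The exceptions among these 23 were ftn-1, ZK742.4, hsp-4 (called at 0.96 with the authors' scaling, 0.99 after quantile normalization and 0.99 with the block) and rips-1 (called at 1.46, 1.52 and 1.43 under the same settings, and at 1.43 with only the 12 arrays fitted). With the block, mercury alone had 1163 probe sets higher and 1550 lower, against 1014 and 1201 without it, and acrylamide 736 and 907, against 627 and 605. Of the 125 genes named by rule or through the added lists, only oac-59 changed the call of its mercury effect with the block. Its effect of -0.73 had a limma adjusted p of 0.051 without the block and 0.031 with it. Other genes named after their values were seen were not checked in this way, nor were acrylamide effects. With 3 arrays a group and dim genes near the pseudocount, small differences could not be resolved.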
